A study of Mus musculus with 6 samples.

Results

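The aminoacyl-tRNA synthetase genes of mouse liver were compared between control mice and mice given low-dose tunicamycin. The members were chosen by gene symbol: 1 capital letter followed by ars, ars1 or ars2, together with the phenylalanine enzyme subunits Farsa and Farsb, the fused glutamate and proline enzyme Eprs, and the scaffold proteins Aimp1 and Aimp2. This rule took 39 of the 22564 genes in the deposited table. Of these, 20 act in the cytosol, 17 in mitochondria, and 2 (Gars and Kars) encode enzymes of both compartments.

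RNA sequencing was done on liver of male C57BL/6 mice, labelled as 10 weeks of age, in 3 control libraries and 3 tunicamycin libraries. Treated mice received tunicamycin at 0.2 mg/kg by intraperitoneal injection every day for 14 days, which is described as a model of sustained endoplasmic reticulum stress. Tunicamycin blocks N-linked glycosylation. The sources used here do not say whether controls were injected with vehicle or whether each library came from its own mouse. The libraries are compared as separate samples, and the spread between them may be technical.

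Each library held between 541022 and 661145 reads on protein-coding genes, recovered as described with the processing. The liver label was checked against 24 genes that define hepatocytes, and 16 of them, including Ttr, Apoa1 and Arg1, were listed at 0 in all 6 libraries. Alb, Apob and Hnf4a had reads in all 6. Alb had 764, 1038 and 773 reads in controls and 486, 326 and 449 with tunicamycin. Apob had 1, 45 and 6 against 137, 126 and 181, and Hnf4a 115, 185 and 62 against 57, 132 and 70. This check did not bear out the liver label, which is used here as given. All 10 lymphocyte markers and all 8 neutrophil markers were listed at 0 in every library, as were 8 of 10 Kupffer cell and macrophage markers, 9 of 10 endothelial markers, 8 of 10 stellate cell markers and 4 of 10 cholangiocyte markers. Another 4 of the 10 cholangiocyte markers had reads in all 6 libraries. The 10 together had 1101 to 1561 reads in the controls and 855 to 1341 with tunicamycin, against 1003 to 1358 and 694 to 838 for the 24 hepatocyte genes. The part of these marker values in the results was not tested.

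Aminoacyl-tRNA synthetases join each amino acid to its matching tRNA and so supply the ribosome with charged tRNAs. The cytosol and the mitochondrion use largely separate sets of enzymes, all encoded in the nucleus, and several cytosolic enzymes sit together with scaffold proteins in the multisynthetase complex. During endoplasmic reticulum stress, phosphorylation of the initiation factor eIF2 favours translation of the transcription factor ATF4, and many cytosolic synthetase genes are known ATF4 targets, whereas mitochondrial ones are generally not.

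Cytosolic and mitochondrial genes were detected to different extents. Reads were present in all 6 libraries for 10 of the 39 genes (25.6%), against 4.71% of all genes in the table. These 10 were Gars, Kars, Aars, Cars, Dars, Eprs, Mars, Tars, Wars and Lars2. The mitochondrial leucine enzyme Lars2 was the only mitochondrial member among them. The other 16 mitochondrial genes had reads in a median of 1 library, and the 20 cytosolic genes in a median of 5. Cytosolic and dual genes without a read numbered 9, 5 and 3 in controls 1 to 3 and 1, 7 and 3 in tunicamycin libraries 1 to 3, so each group held libraries with many and with few such genes. Of all genes in the table, 2950, 4888 and 4950 had reads in controls 1 to 3. In tunicamycin libraries 1 to 3 these numbered 5346, 4125 and 4160. Control 1 was thus lowest and tunicamycin library 1 highest over all genes too, and the member counts are no result about the synthetases.

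**Figure D1:**
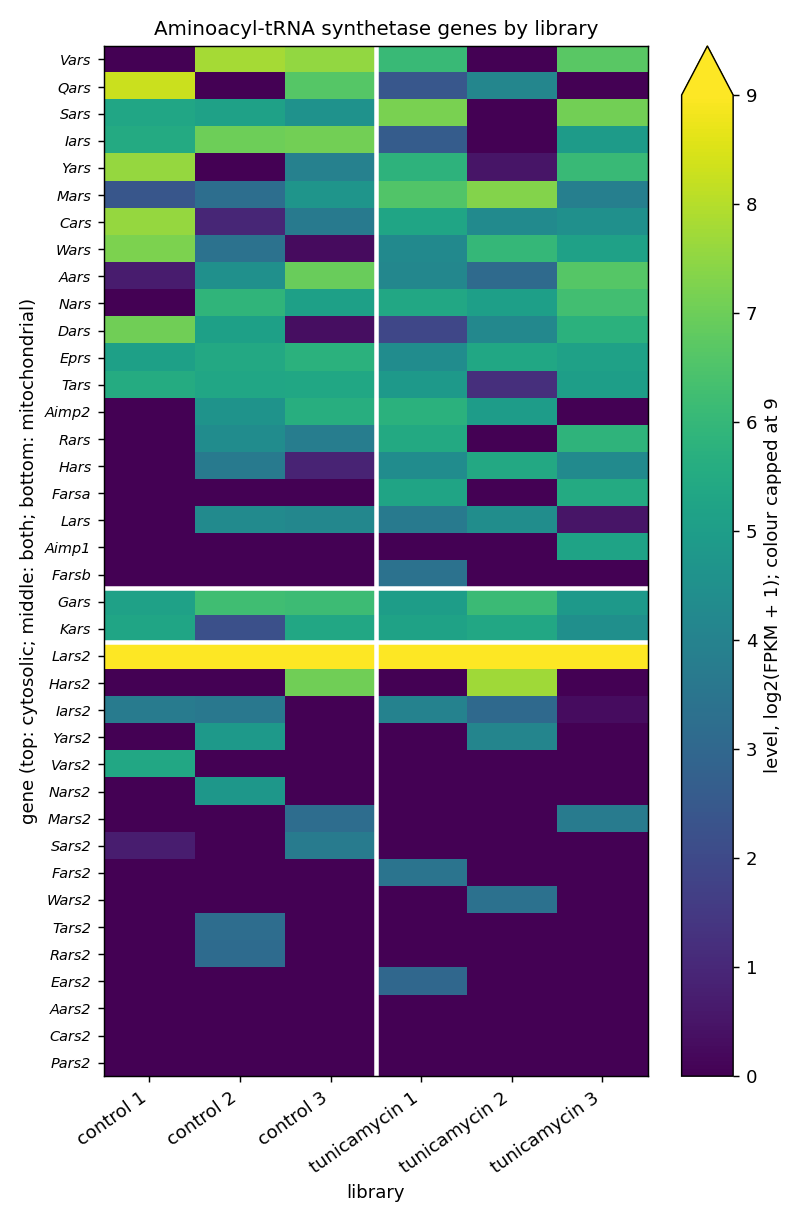
Level of the synthetase genes in each library, as log2(FPKM + 1) by colour, with cytosolic genes at the top, the 2 genes of both compartments in the middle and mitochondrial genes at the bottom; the colour is capped at 9. Lars2 is above the cap in all 6 libraries, and the other mitochondrial genes shown are mostly at 0.

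Lars2 charges the mitochondrial leucine tRNAs and lies on chromosome 9 at 123366939 to 123462664 (mm10). It had more reads than any other gene in each of the 6 libraries. Its reads numbered 78548, 95728 and 105974 in the controls and 142618, 92760 and 110445 in the tunicamycin libraries. As a share of all reads this was 14.5%, 16.6% and 16.0% in the controls and 23.3%, 16.7% and 18.5% with tunicamycin. The 95% Wilson intervals were 0.106 percentage points or less on either side. They cover counting error only and take each read as drawn independently, which was not tested. Tunicamycin library 1 stood highest, and the groups did not overlap, although tunicamycin library 2 was only just above control 2. How often read shares did not overlap over all genes was not counted, for this gene or those below.

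The mean share was 15.7% ± 1.07 in controls and 19.5% ± 3.41 with tunicamycin (SD, n = 3 each), a difference of 3.84 percentage points. An exact permutation test over the libraries, 2-sided, gave p = 0.1, the smallest that 3 against 3 allows. Without tunicamycin library 1 the difference was 1.94 points. In FPKM (fragments scaled to transcript length and library size), Lars2 measured 11916, 13950 and 14625 in controls and 19730, 13807 and 15757 with tunicamycin, and on this scale the groups overlapped. Fewer cells of a type and less RNA per cell cannot be told apart in bulk liver, for this gene or any other here.

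On the log2(FPKM + 1) scale, Lars2 rose by 0.27 (SE 0.062), with a limma adjusted p of 0.0187 over 7696 genes, those averaging 1 FPKM or more. It was the only synthetase gene called among the 36 members tested. Over all genes tested limma called 5, or 0.065%, and 238 had an unadjusted p under 0.05. edgeR on whole reads called Lars2 with a log2 change of 0.41 (adjusted p = 1.57e-248), 1 of 3 genes called (0.039%). That p is not read as a measure of the spread between libraries, for which the exact permutation p of 0.1 stands. DESeq2 on the same reads gave a log2 change of 0.33 (SE 0.293, adjusted p = 0.9997) and called no member. It called 34 genes, 0.442% of all 7696. DESeq2 gave no adjusted p for 3411 of these, so the share among genes that could be called is higher.

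The limma SE came from the trend of variance over genes of like abundance and gave no weight to the spread of Lars2 itself. The limma call was kept without control 3 (0.33, adjusted p = 0.00196) and lost without any other single library, the change being 0.13 without tunicamycin library 1.

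**Figure D2:**
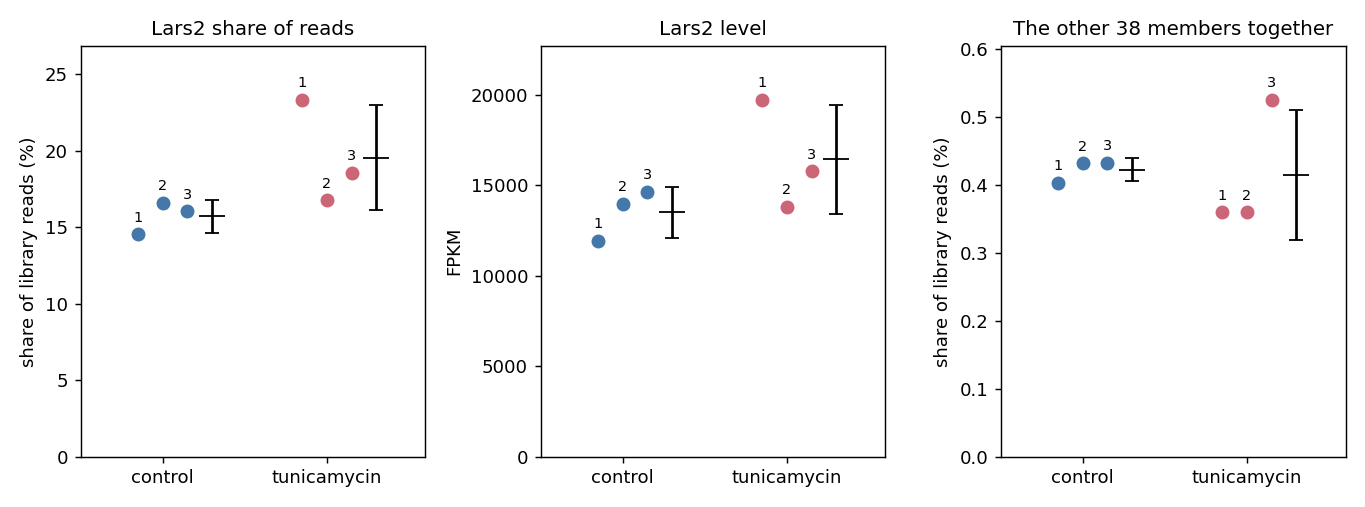
Lars2 as a share of library reads (left, %), Lars2 level (middle, FPKM) and the share of reads of the other 38 genes together (right, %), by group; points are libraries with their replicate numbers, the horizontal line is the mean and the bar is 1 SD (n = 3). Lars2 read shares do not overlap between the groups, its FPKM values do, and the shares of the other genes do.

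Lars2 held between 97.2% and 98.5% of the reads of all 39 genes. Mitochondrially encoded genes, which came next in abundance, took 4.15%, 8.69% and 8.12% of reads in the controls and 6.33%, 6.58% and 4.84% with tunicamycin. With them left out of the denominator the Lars2 shares differed by 3.86 points (exact permutation p = 0.2). In GENCODE M21 the Lars2 transcript has 21 exons and 3894 nucleotides, of which the last 989 form the 3′ UTR. Within that UTR, nucleotides 3278 to 3349 matched the annotated antisense RNA Gm15564 at 98.6% identity. This stretch was not compared with ribosomal RNA sequence, and whether ribosomal RNA reads were counted as Lars2 was not tested, a limit on all Lars2 values given here. How the reads were spread along Lars2 was not analysed here, and the part of this stretch in its read number was not tested.

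The other 38 genes together took 0.403%, 0.431% and 0.432% of reads in the controls and 0.359%, 0.359% and 0.525% with tunicamycin. The treated libraries lay both below and above all controls. The means were 0.422% ± 0.0167 and 0.415% ± 0.0958 (SD, n = 3 each). None of these genes passed limma's threshold, and Iars was the only one with an unadjusted p under 0.05.

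Gars, the glycine enzyme of both compartments, measured 34.1, 74.7 and 70.7 FPKM in controls and 31.4, 70.0 and 27.2 with tunicamycin. Each group held low and high libraries, and the limma change was -0.52 on the log2(FPKM + 1) scale (SE 1.31, adjusted p = 0.950). Kars, the lysine enzyme and a member of the multisynthetase complex, measured 37.9, 3.54 and 41.2 FPKM in controls and 35.1, 41.3 and 21.4 with tunicamycin. Control 2 alone was low, with 12 reads against 74 to 147 elsewhere. The Kars log2 change of 0.73 (SE 1.59, limma adjusted p = 0.933) became -0.32 without that library.

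Among genes of the multisynthetase complex, Eprs was the steadiest. It measured 34.0, 41.9 and 53.3 FPKM in controls and 19.8, 40.5 and 34.2 with tunicamycin, from 180 to 488 reads. Tunicamycin library 1 was lowest, the groups overlapped, and the log2 change was -0.48 (SE 1.42, limma adjusted p = 0.967).

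Iars, the cytosolic isoleucine enzyme (chromosome 13, 49682099 to 49734267), measured 44.5, 128 and 134 FPKM in controls and 5.10, 0 and 29.8 with tunicamycin. All treated values lay below all controls. The log2 change was -4.01 (SE 1.62, limma adjusted p = 0.852), and -2.75 without tunicamycin library 2, where Iars was listed at 0. Its reads told a different order: 286, 253 and 157 in controls against 42, 0 and 238 with tunicamycin, so that read shares overlapped, and edgeR gave -1.27 (adjusted p = 0.966).

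Mars, the methionine enzyme, went from 4.28, 8.60 and 25.0 FPKM in controls to 92.0, 158 and 13.8 with tunicamycin. Tunicamycin library 3 fell inside the control range. Its log2 change in FPKM was 2.46 (SE 1.58, limma adjusted p = 0.852), but its reads were 21, 44 and 135 against 70, 121 and 72, for which edgeR gave 0.47 (adjusted p = 1.00). Dars, the aspartate enzyme, spanned 0.250 to 130 FPKM within the controls and 2.74 to 52.7 with tunicamycin. Its log2 change of -0.21 (SE 1.75, limma adjusted p = 0.999) turned positive without control 1, control 2 or tunicamycin library 1, at 1.23, 0.27 and 0.82.

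The other complex members were each without reads in at least 1 library. The leucine enzyme Lars had no reads in control 1 and 3 in tunicamycin library 3, against 85 to 134 elsewhere. The glutamine enzyme Qars reached 313 FPKM in control 1 and was listed at 0 in control 2 and tunicamycin library 3. The arginine enzyme Rars was listed at 0 in control 1 and tunicamycin library 2. Of the scaffolds, which bind the enzymes together without charging tRNA, Aimp2 had reads in 4 libraries and Aimp1 in tunicamycin library 3 alone, with 65 reads. Over the 10 complex members, 6 changes were positive and 4 negative, and none was called.

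Outside the complex, Tars (threonine enzyme, chromosome 15, 11383662 to 11399658) had the tightest controls. It measured 45.3, 38.9 and 40.4 FPKM in controls and 28.3, 1.35 and 32.2 with tunicamycin, with 198, 177 and 194 reads against 136, 6 and 150. Every treated library lay below every control, in FPKM and in read share. The control mean was 41.5 ± 3.37 and the tunicamycin mean 20.6 ± 16.8 FPKM (SD, n = 3 each). The log2 change of -1.69 (SE 1.61, limma adjusted p = 0.852) was -0.44 without tunicamycin library 2.

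Hars, the cytosolic histidine enzyme, measured 0, 11.9 and 0.851 FPKM in controls and 20.0, 42.3 and 19.0 with tunicamycin, from 0, 40 and 3 reads against 71, 139 and 65. Every treated library lay above every control, in FPKM and in read share. The log2 change was 3.19 (SE 1.96, limma adjusted p = 0.852). Across the 36 members tested, FPKM values did not overlap in 1 gene higher with tunicamycin (Hars) and in 2 genes lower (Iars and Tars). Over all genes tested this held for 3.03% higher and 2.72% lower, and counts of 1 and 2 are of that order and are no result about these genes. For read shares no such count over all genes was made, so the separation of Hars and Tars there is descriptive only.

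The alanine, cysteine and tryptophan enzymes had reads in every library with wide spreads. Aars spanned 0.604 to 123 FPKM in controls and 7.62 to 96.9 with tunicamycin, with a log2 change of 0.57 (SE 1.67, limma adjusted p = 0.966). Cars spanned 0.978 to 191 FPKM in controls and 18.6 to 38.6 with tunicamycin, with a log2 change of 0.62 (SE 1.66, limma adjusted p = 0.953). Wars spanned 0.198 to 150 FPKM in controls and 18.3 to 62.6 with tunicamycin, with a log2 change of 1.50 (SE 1.66, limma adjusted p = 0.852). In all 3 genes the control libraries ranged more widely than the treated ones, which lay within their range. The sign turned without control 1 or tunicamycin library 3 for Aars (-1.12 and -0.42), without control 2 for Cars (-0.94) and without control 3 for Wars (-0.19).

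The remaining cytosolic genes were absent from some libraries. Tunicamycin library 2 had no reads for the serine enzyme Sars, which had 326 and 152 in the other treated libraries and 76 to 118 in the controls. The valine enzyme Vars was listed at 0 in control 1 and tunicamycin library 2, and reached 220 FPKM in control 2. The asparagine enzyme Nars was listed at 0 in control 1 and had 148 to 352 reads elsewhere. The tyrosine enzyme Yars was listed at 0 in control 2 and reached 189 FPKM in control 1. Both phenylalanine enzyme subunits were without reads in all 3 controls. Farsa had 41 and 148 reads in tunicamycin libraries 1 and 3, and Farsb had 35 in library 1, so the 2 subunits of the same enzyme were seen together in 1 library.

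Apart from Lars2, the mitochondrial enzymes had reads in few libraries, although some had over 100 reads where they had any. Iars2, the isoleucine enzyme, had the widest presence, with 118, 47 and 0 reads in controls and 66, 72 and 1 with tunicamycin. The enzymes Hars2, Mars2, Sars2 and Yars2 had reads in 2 libraries each. Of these, Hars2, Mars2 and Yars2 had reads in 1 library of each group, and Sars2 in 2 controls. Another 7 had reads in a single library: Nars2, Rars2 and Tars2 in control 2, Vars2 in control 1, Ears2 and Fars2 in tunicamycin library 1, and Wars2 in tunicamycin library 2. The single libraries held 24 to 131 reads for these genes. Aars2, Cars2 and Pars2 had no read anywhere, and they were not tested. At these depths 3 reads, the limit that a count of 0 allows, equal a share of 0.000454% to 0.000555%, counting error only.

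By compartment, 13 of 20 cytosolic genes had a positive and 7 a negative change, with a median log2 change of 0.43. The positive ones include Aimp1, Farsa and Farsb, which had no reads in any control and could only be positive. Of the 13 mitochondrial genes tested besides Lars2, 6 were positive and 7 negative, with a median of -0.25. The negative ones include Nars2, Rars2, Sars2, Tars2 and Vars2, which had no reads with tunicamycin and could only be negative. The positive ones include Ears2, Fars2 and Wars2, which had no reads in any control and could only be positive. Over all 7696 genes the split was 4013 to 3683 and the median 0.10. With read shares in place of FPKM, and genes without reads in a group set to 3 reads over that group, the medians were 0.25 for cytosolic genes, -0.23 for mitochondrial genes without Lars2 and 0.02 for all genes. No cytosolic gene was called in either direction. The medians are not read as a difference between compartments.

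The cytosolic median ranged from -0.01 without control 1 to 1.31 without tunicamycin library 2. The median of all 14 mitochondrial genes tested, -0.12, ranged from -1.07 without tunicamycin library 2 to 0.44 without control 2. Over all genes tested the median also moved, from -0.21 without control 1 to 0.50 without control 3.

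**Figure D3:**
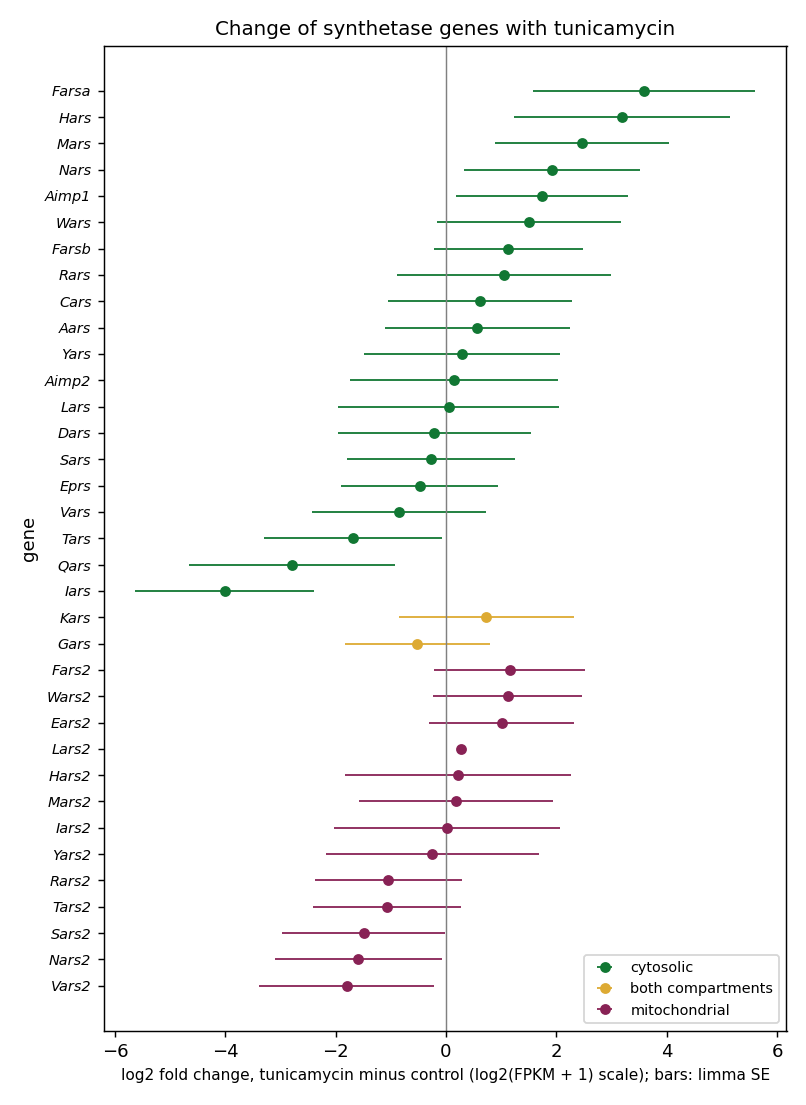
Log2 change with tunicamycin, on the log2(FPKM + 1) scale, of synthetase genes tested, by compartment; points are limma estimates and bars 1 SE. Lars2, at 0.27 with an SE of 0.062, is the one gene called, and the other genes shown run from -4.01 (Iars) to 3.59 (Farsa, listed at 0 in all controls) with SEs over 1.

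Synthetase genes known as ATF4 targets were read together. In the promoters of the RefSeq table (GRCm38.p6), from 250 bases before to 50 after each gene start, the CARE motif TGATGNAA, the composite element that ATF4 binds with C/EBP partners, was searched on both strands. No other motif was searched. Promoters were matched for 29 of the 39 genes. The motif was present in 5 of the 8 target genes with a promoter (62.5%), in 0 of 8 promoters of other cytosolic and dual genes, in 0 of 15 mitochondrial promoters, and in 3.97% of all 32851 promoters. The target list is known in part from such sites, so the first share is not independent of it. The windows below show, for each of the 5 genes, the match nearest its gene start, 5′ to 3′ on the strand that reads TGATGNAA, with the motif in capitals.
Aars (chr8:111033841-111033868, minus strand): cagagcgctcTGATGAAAagtgacccgc
Gars (chr6:55037961-55037988, minus strand): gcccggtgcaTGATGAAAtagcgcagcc
Iars (chr13:49682127-49682154, minus strand): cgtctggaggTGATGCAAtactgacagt
Tars (chr15:11399656-11399683, plus strand): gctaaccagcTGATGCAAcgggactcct
Yars (chr4:129189896-129189923, plus strand): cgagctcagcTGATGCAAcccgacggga
The letters TGATGCAA stand in 3 of the 5 windows and TGATGAAA in the other 2. A match is a description of the sequence and not a binding site.

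The 13 listed ATF4 targets split into 7 positive and 6 negative changes, with a median log2 change of 0.05, against 0.10 over all genes tested. None was called. Of the 5 genes whose windows are printed, Tars and Iars were below all controls in FPKM in every treated library, as were 2.72% of all genes tested, and Gars, Aars and Yars overlapped their controls. Iars overlapped in read share. The 9 other cytosolic and dual genes had 7 positive and 2 negative changes, with a median of 1.05, and none was called. Among them Aimp1, Farsa and Farsb had reads in 1, 2 and 1 libraries, none of them controls, so their changes could only be positive. The range of this median leaving out 1 library was not computed, and the split is not read as a difference from the listed targets. Atf4 itself measured 98.9, 70.2 and 88.1 FPKM in controls and 98.5, 19.2 and 43.3 with tunicamycin. Asns, the asparagine synthetase gene and another ATF4 target, measured 44.8, 34.8 and 83.1 FPKM in controls and 47.3, 317 and 60.5 with tunicamycin. Tunicamycin library 2 had the lowest Atf4 FPKM and the highest Asns FPKM of the 6, and neither gene was called. Asns reads were 145, 47 and 128 in controls and 93, 152 and 84 with tunicamycin. In reads, control 1 was thus close to tunicamycin library 2, unlike in FPKM.

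Genes that work beside the synthetases, in tRNA charging, editing and maturation, gave no call either. Of 29 such genes in the table, 21 were tested, 14 with positive and 7 with negative changes. Their median was 0.92, against 0.10 over all genes tested, and 8 of the 29 had reads in 1 library only. Genes with reads in only 1 group, of which there were some on either side, had a fixed sign. Control 1 had reads for only 4 of the 29. The range of this median leaving out 1 library was not computed, and it is not read as a rise of these genes. The 3 with the smallest p were Pstk, a kinase that acts on seryl-tRNA for selenocysteine, Trmu, which thiolates mitochondrial tRNAs, and Nsun2, a tRNA cytosine methyltransferase. Pstk had 0, 55 and 55 reads in controls and Trmu 107, 1 and 0, and both had none with tunicamycin. Nsun2 measured 133, 125 and 293 FPKM in controls and 86.8, 36.9 and 56.6 with tunicamycin. All Nsun2 values with tunicamycin were below all controls, as held for 2.72% of all genes tested and for 1 of the 21 here. Its log2 change was -1.56 (limma adjusted p = 0.852).

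The FPKM of a synthetase gene did not always follow its reads. Where reads are assigned to the same transcripts, the deposited count per unit of FPKM stays constant between libraries. Of the 27 genes with reads in at least 2 libraries, 11 kept this value within 1.05-fold, among them Lars2 (7.21 to 7.27), Eprs, Gars, Kars, Tars and Hars. In 16 genes it moved by over 2-fold, the most in Yars (7.97-fold), Qars (7.22-fold), Iars (7.08-fold) and Mars (7.06-fold). For Mars and Iars the FPKM and read comparisons above differ accordingly. Hars2 had 0.43 to 0.45 counts per FPKM, so that 57 reads gave 132 FPKM.

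**Figure D4:**
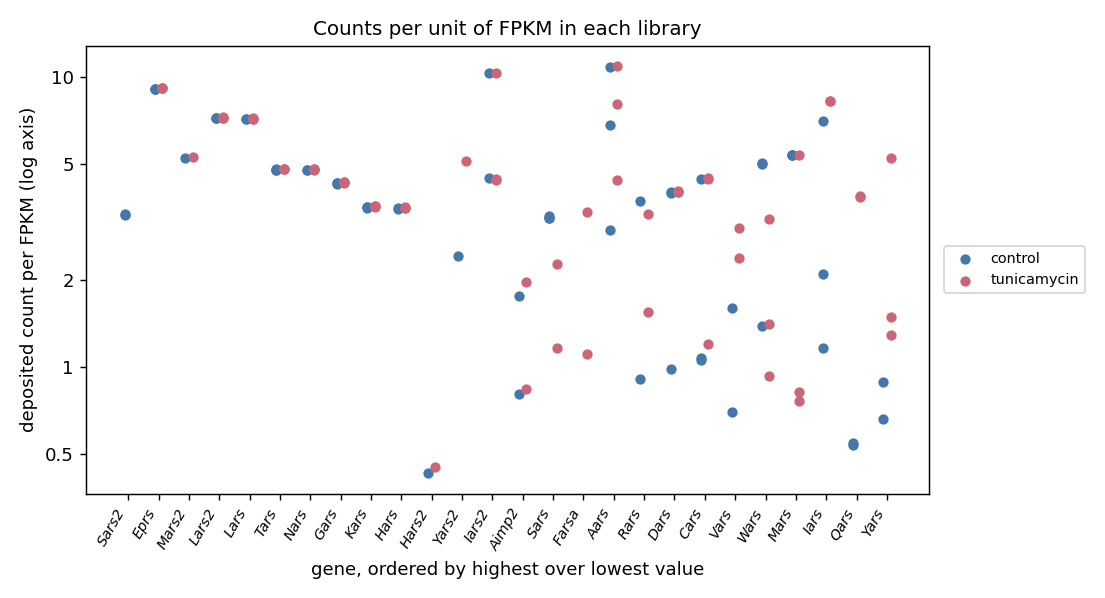
Deposited count per unit of FPKM (log axis) for synthetase genes with reads in at least 2 libraries, ordered by the ratio of highest to lowest value; each point is a library. The genes at the left, such as Eprs and Lars2, hold 1 value in all libraries, and those at the right, from Mars to Yars, spread over 7-fold or more.

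Read numbers of the 38 genes other than Lars2 were set against the most frequent read number of each library. This number, taken per gene over all genes with reads, was 139.6 in control 1 and 39.8 to 70.8 in the other 5 libraries. In control 1, 11 of the 16 synthetase genes with reads lay within 1.5-fold of it (68.8%), against 45.4% of all genes with reads. In tunicamycin library 2 this held for 10 of 19 (52.6%, against 44.0%). In the other 4 libraries it held for 29.2% to 33.3% of synthetase genes, below the 36.6% to 43.7% of all genes there. A gene with at least 50 reads in 1 library was often without reads in another of its group. This share ran from 0% (tunicamycin library 1 against 3) to 46.2% (6 of 13 genes of control 2 at 0 in control 1). The same share over all genes was not counted, so it is no result about the synthetases. Of all genes, 2950 had reads in control 1 and 4888 in control 2.

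**Figure D5:**
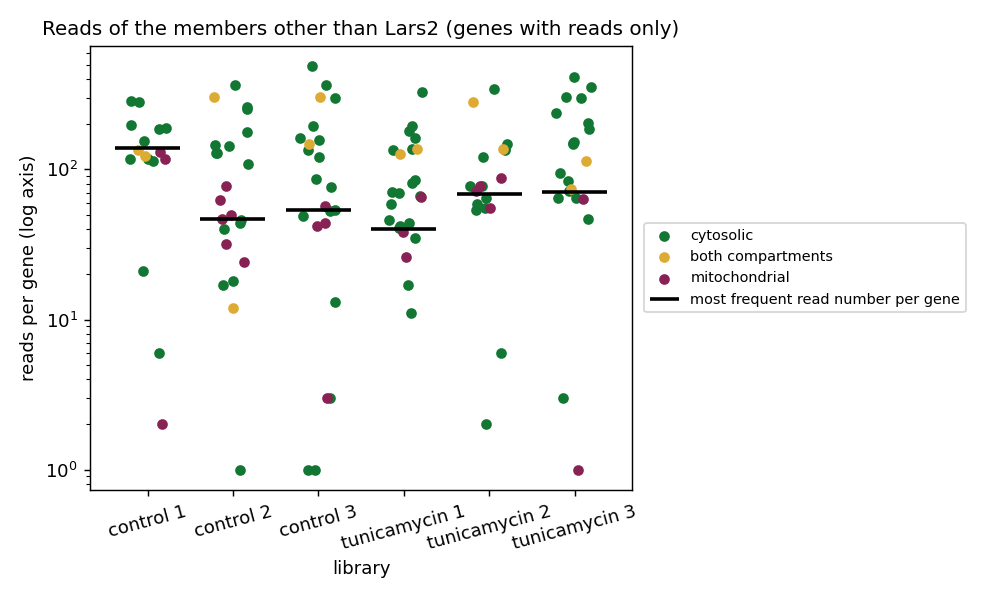
Reads per gene (log axis) of the 38 genes other than Lars2 in each library, for genes with reads, by compartment; the black line is the most frequent read number per gene over all genes of that library. In control 1 the line stands at 139.6 and 11 of 16 genes lie within 1.5-fold of it.

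Several of these genes share sequence with a neighbour or a copy, and the sources used here do not say whether counting used strand. In GENCODE M21, exons of 16 of the 39 genes overlap another gene. Hars and Hars2 lie head to head on opposite strands and share 195 nucleotides. The 3′ end of Mars overlaps 68 nucleotides of Ddit3 on the other strand, and Iars2 overlaps 2034 of Rab3gap2. Aars shares 1326 nucleotides with Exosc6 on the same strand, and Iars has a processed pseudogene, Gm4849, at 96.0% identity over 1656 nucleotides. On the other strand, Aimp2 overlaps 487 nucleotides of Eif2ak1, and Farsb 248 of Sgpp2. Values of Iars and of the 16 overlapping genes are therefore uncertain to the extent that reads could be placed on either gene.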

How the data were processed

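RNA was measured in 6 liver libraries. Per the labels' protocols, ribosomal RNA was depleted and stranded libraries were made from total RNA. Trimming with cutadapt 1.9.3, alignment to mm10 with HISAT2 2.0.4 and gene values from Cuffdiff are given per the submitters' design text and processing notes, which also list CASAVA 1.8. The authors deposited FPKM per gene and library, and estimated counts. The sources used here do not say how these were scaled.

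Dividing the counts by 1 step per library gave whole reads (97.2% to 98.0% of values above 0 within 0.01 of a whole multiple), 541022 to 661145 per library. 1 blank line of the table was skipped. Individual values of 1 gene and 1 promoter match are not reported here. limma 3.58.1 (R 4.3.3, variance trend) tested log2(FPKM + 1), a log2 scale computed here from the deposited FPKM, over 7696 genes averaging 1 FPKM or more, with Benjamini-Hochberg adjustment and a threshold of 0.05, 2-sided. The pseudocount of 1 understates changes of low genes. edgeR 4.0.16 (quasi-likelihood, TMM) and DESeq2 1.42.0 (poscounts), both on whole reads, were alternatives, beside other pseudocounts, filters, scalings, a replicate block and leaving out each library. The test code was tested on simulated data.

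Every gene of the rule could be named. Besides these, only Atf4, Asns, mitochondrially encoded genes, hepatocyte markers and up to 3 tRNA-related genes with the smallest p could be, while neighbouring genes and copies were named for their sequence. The members and lists were chosen with earlier results of these data known. An FPKM of 0 can be a failed estimate, so such genes are given as listed at 0. Promoters and sequences are from RefSeq (GRCm38.p6), matched by gene identifier, and gene models are from GENCODE M21.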

Additional observations from a re-analysis of the deposited data

How the results depend on the processing

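The limma count over all genes was 5 as reported, 2 with a pseudocount of 5, and 0 without a filter on low values, without the variance trend or with the replicate block. It was 0 to 7 leaving out 1 library, 3 by edgeR and 34 by DESeq2. Synthetase genes called numbered 1 as reported and 0 with a pseudocount of 5, no filter, quantile normalization, no variance trend, the replicate block or DESeq2, and 0 to 1 leaving out 1 library. The Lars2 log2 change stayed 0.27 but missed the threshold with a pseudocount of 5 (adjusted p = 0.394), no filter (0.752), no variance trend (0.989) and the replicate block (0.886). It was 0 under quantile normalization, which sets the top gene of every library equal, 0.33 by DESeq2, and 0.13 to 0.39 leaving out 1 library. It passed with a pseudocount of 0.1, median-of-ratios scaling, scaling without Lars2 and mitochondrially encoded genes, and edgeR.

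The Lars2 read share difference had p = 0.25 with the replicate block (exact sign-flip test) and 1.94 to 5.23 points leaving out 1 library. The mitochondrial median ran from -1.07 to 0.44 leaving out 1 library, and the median over all genes tested from -0.21 to 0.50. Signs turned for Dars (0.25 with a pseudocount of 0.1, 0.18 by edgeR, 0.071 by DESeq2, -2.13 to 1.23 leaving out 1 library), Aars (-0.47 under quantile normalization, -1.12 to 2.02), Cars (-0.25 by DESeq2, -0.94 to 2.37), Wars (-0.29 by edgeR, -0.72 by DESeq2, -0.19 to 3.30) and Kars (-0.32 to 1.29). The causes were not tested. Among the 24 other members tested, 38 of 373 values turned sign, in 10 genes.

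Same-numbered libraries did not deviate together (correlations of -0.0093, -0.014 and 0.0023), so the replicate numbers are not taken as pairs. Depth, among other limits, is low: outside Lars2 no member had more than 488 reads in a library, and the limma SEs of all other members tested were above 1 on the log2 scale.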
